A study of Rattus norvegicus with 8 samples.

Results

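The immediate-early and activity-regulated genes described here are 10 of the 14217 genes named on the array, chosen by name: Fos, Fosl2, Jun, Junb, Egr1, Arc, Nr4a1, Atf3, Gadd45b and Dusp6. Every probe set whose only annotated symbol was one of them was taken, which gave 16 of the 31042 probe sets in the table. Of these genes, 4 had several probe sets and 6 had 1. The genes were chosen with earlier results of these data known. Both groups held lumbar spinal motoneurons from Wistar albino rats, taken at postnatal day 1 (P1), while axons are being myelinated, or at postnatal day 21 (P21), after myelination. The labels name no genotype, sex or agent that differs between the ages. The rats came from 4 litters, each shared out over both ages, and an age had 4 biological replicates with 1 Affymetrix RAE230 2.0 array apiece. Per the labels' protocols, between 1500 and 2000 cells stained with cresyl violet were laser-captured for an array, a pool of 4 rats yielded around 50 ng of RNA, and 2 rounds of amplification started at the poly(A) tail, so an array reports a pool and not a cell or an animal.

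Immediate-early genes are transcribed within minutes of a stimulus, without new protein synthesis. Calcium entry and growth factors act through ERK and other kinases on the transcription factors SRF, its ELK partners and CREB, which wait at the promoters. Fos and Jun proteins pair to form AP-1, Egr1 and Nr4a1 are transcription factors of other families, and Arc is an effector at the synapse. In motoneurons Jun and Atf3 are known for their induction after the axon is cut.

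The promoters show which of these inputs have a recognisable sequence close to the start of 6 members. Fos, Jun, Arc and Atf3 were not among the promoters searched. RefSeq promoters of the rat assembly GRCr8 were matched by symbol for 6 of the 10 members, and the 250 bases before the start given in that table were searched on both strands for the CArG box bound by SRF, the cyclic AMP response element (CRE) TGACGTCA bound by CREB, the AP-1 site TGANTCA and the EGR site GCGNGGGCG. The CRE half-site TGACG, which every full CRE contains, was added after the sequences were seen. The promoters of Egr1 (chr18:26736828-26737077, plus strand) and Nr4a1 (chr7:134259888-134260137, plus strand) are printed because they held the most matches, and that of Gadd45b (chr7:9430719-9430968, minus strand) because this gene had the largest change. Capitals mark matches to any of the motifs, on either strand. The start used by the table lies inside the annotated span of the gene for Nr4a1 (12985 bases from its upstream end), Gadd45b (273) and Dusp6 (102), so their windows precede an internal start.
Egr1: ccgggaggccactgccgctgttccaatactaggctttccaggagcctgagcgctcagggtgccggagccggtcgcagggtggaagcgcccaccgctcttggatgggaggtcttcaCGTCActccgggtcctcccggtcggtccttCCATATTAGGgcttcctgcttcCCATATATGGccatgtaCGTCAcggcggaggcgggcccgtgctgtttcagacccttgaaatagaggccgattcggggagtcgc
Nr4a1: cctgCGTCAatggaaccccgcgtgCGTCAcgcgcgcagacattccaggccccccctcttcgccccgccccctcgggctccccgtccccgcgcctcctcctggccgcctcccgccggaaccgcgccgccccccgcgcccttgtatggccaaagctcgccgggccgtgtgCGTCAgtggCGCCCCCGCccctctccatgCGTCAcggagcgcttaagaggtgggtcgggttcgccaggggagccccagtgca
Gadd45b: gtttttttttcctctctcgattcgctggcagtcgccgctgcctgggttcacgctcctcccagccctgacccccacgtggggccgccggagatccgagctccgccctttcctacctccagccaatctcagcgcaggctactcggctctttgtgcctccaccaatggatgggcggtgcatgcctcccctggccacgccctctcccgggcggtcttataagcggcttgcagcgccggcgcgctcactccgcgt

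The Egr1 promoter held 2 CArG boxes, with first bases 105 and 83 bases before the start, and 2 CRE half-sites around them. A CArG box was present in 1.5% of the 33469 promoters of the table, and at least 2 in 0.0209%. The Nr4a1 promoter held 4 CRE half-sites and 1 EGR site. A CRE half-site was present in 18.2% of all promoters and at least 3 in 0.813%. Fosl2 held 1 EGR site, a motif present in 4.29% of all promoters, and Junb held 1 CRE half-site. No full CRE, present in 1.59% of all promoters, and no AP-1 site, present in 6.34%, was found in these 6 windows. Gadd45b and Dusp6, the members with the largest changes between the ages, held 0 matches, which says only that these letters are not in the windows searched.

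**Figure D1:**
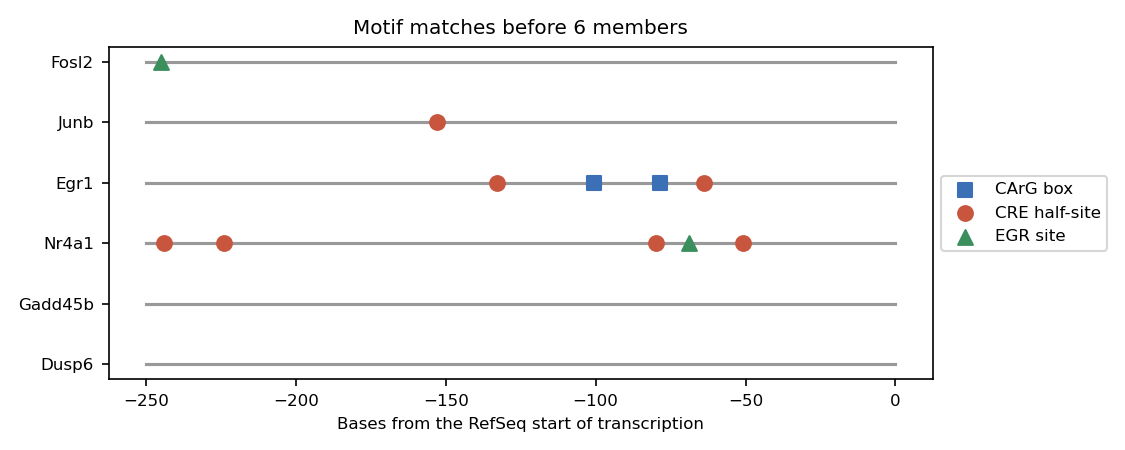
Motif matches in the 250 bases before the start of 6 members, by distance from the start in bases, each symbol being the centre of 1 match. Egr1 has 2 CArG boxes and 2 CRE half-sites, Nr4a1 has 4 CRE half-sites and 1 EGR site, and Gadd45b and Dusp6 have none.

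The comparison asked whether these genes differ between motoneurons during and after myelination. Gadd45b rose, both tested Dusp6 probe sets fell, Atf3 rose by less than 2-fold, and among the AP-1 genes only 1 probe set each of Fos (higher) and Jun (lower) passed. Egr1, Arc and Nr4a1 did not pass the test. The values below are linear probe set intensities as deposited, written for replicates 1 to 4 of an age, with means ± SD and n = 4 arrays per age. Changes are differences of mean log2(intensity + 16), P21 minus P1, ± standard error, with adjusted p from limma over all kept probe sets. A probe set was kept if it exceeded its array's 40th percentile on at least 4 of the 8 arrays, a level between 221 and 287, which was met by 12 of the 16 probe sets and 8 of the 10 genes. In these bulk pools, fewer cells that express a gene and less RNA per cell cannot be told apart.

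Of the 12 kept probe sets, 3 rose and 3 fell at an adjusted p under 0.05, while 38.3% of all 19155 kept probe sets were called (20.8% higher and 17.4% lower). With 1 probe set per gene, the brightest, 2 of 8 members rose and 2 fell, against 39.5% of all 10961 genes called (22.1% higher and 17.4% lower), a background against which these few members show nothing particular as a group. The ages did not overlap for 3 of the 12 kept probe sets, against 38% of all kept ones. The median change of the 12 was -0.12, against 0.07 over all kept probe sets. With 1 probe set per gene its sign was the opposite, 0.12 over the members against 0.05 over all genes. The median size of change, whatever its sign, was 0.44 among the 12 and 0.28 over all. Centring each array on its median moved the change of all probe sets down, from a median of 0.07 to -0.07, so smaller changes have no settled sign. That centring turned the split of all calls from 54.4% higher to 38.6% higher, and left 2 member probe sets higher and 3 lower.

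Gadd45b, a stress-inducible nuclear protein linked to removal of DNA methylation after neuronal activity in mouse, had the largest change. Its probe set read 349, 360, 333 and 282 on the P1 arrays. At P21 it read 811, 840.2, 1185 and 776. Every P21 array lay above every P1 array, and P21 replicate 3 stood highest. The means were 331 ± 34.2 and 903 ± 189.7, a change of 1.39 ± 0.15 (2.62-fold, adjusted p = 7.11e-05). The size of this change exceeded that of 94.7% of all kept probe sets, and it stayed between 1.25 and 1.45 under every alternative run, with an adjusted p of at most 3.65e-04.

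Dusp6, a cytoplasmic phosphatase that switches off ERK and is itself transcribed when ERK is active, fell on 2 probe sets. The probe set 1387024_at read 1309, 1154, 1160.4 and 1306 at P1. It read 808, 678, 564 and 683 at P21, and the ages did not overlap. Its change was -0.84 ± 0.12 (adjusted p = 4.24e-04), called under every alternative run. The brighter probe set 1377064_at went from 1459 ± 177 to 1037 ± 234, with P21 replicate 1 at 1367 inside the P1 range, and its change was -0.50 ± 0.16 (adjusted p = 0.0306). That call was lost without the filter (0.0602) and whenever 1 of P1 replicates 1, 3 and 4 or of P21 replicates 2 to 4 was left out (0.0503 to 0.0821). The remaining probe set, 1382778_at, exceeded the filter level on 1 array of each age and read from 54.9 to 620.3 over the 8 arrays, so it was not tested.

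**Figure D2:**
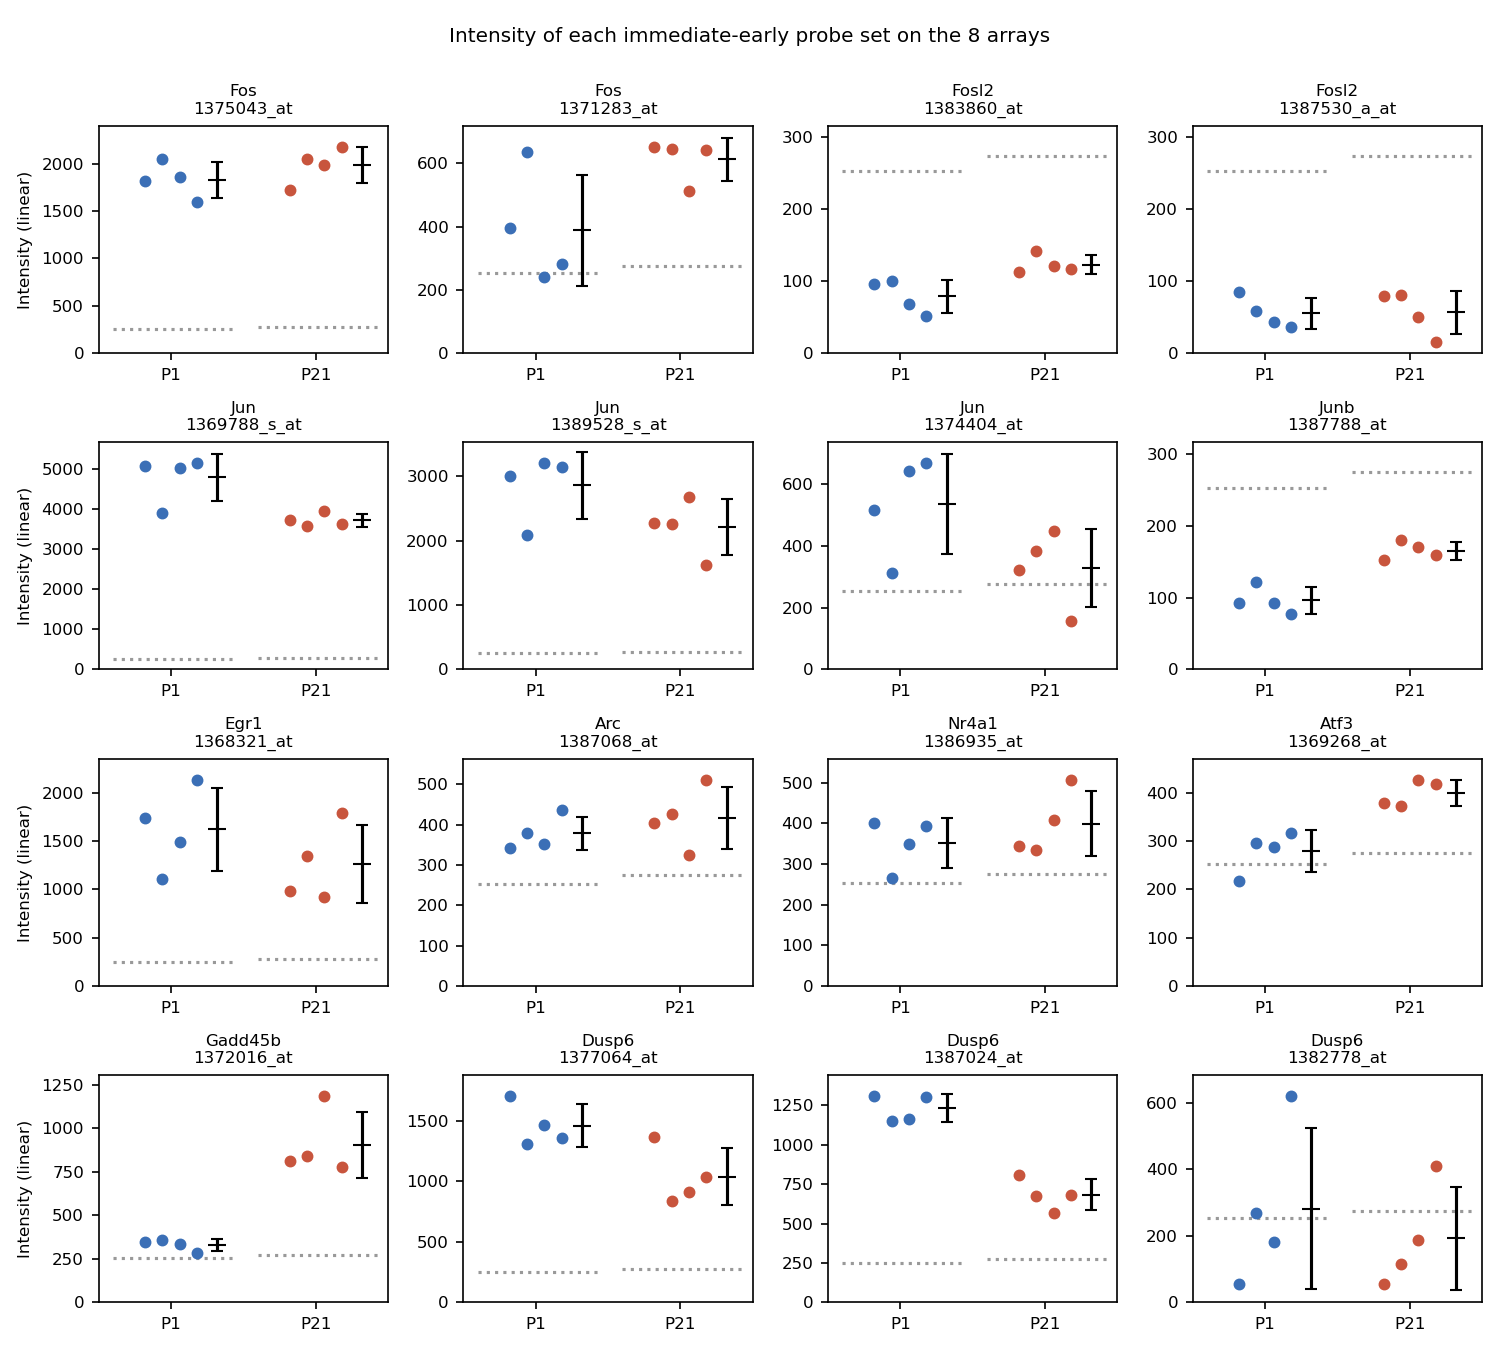
Linear intensity of each of the 16 probe sets on the 4 P1 arrays (blue) and 4 P21 arrays (red), points in order of replicate number, with mean and SD as black bars and the mean filter level of each age as a dotted line. Every panel starts at 0 and has its own scale. Gadd45b, Atf3, Junb and 1 Fosl2 probe set read higher on all P21 arrays, Dusp6 1387024_at read lower on all of them, and the Fosl2 and Junb points lie under the dotted lines.

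Atf3, a leucine zipper transcription factor induced by axon injury, read 216, 297, 288 and 316 at P1. It read 379, 373, 427 and 418 at P21, again with no overlap. Its change was 0.50 ± 0.12 (1.42-fold, adjusted p = 0.0102). Both ages lay close to the filter level. The call did not hold under median centring of the arrays (0.37, adjusted p = 0.0873) and with quantile normalization (0.37, adjusted p = 0.0887).

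Fos, the partner of Jun in the AP-1 dimer, was measured by 2 probe sets that differed. The brighter one, 1375043_at, read 1820.2, 2050.2, 1853 and 1591 at P1 and 1723, 2045, 1989 and 2180 at P21. The ages overlapped and the change was 0.12 ± 0.11 (95% interval -0.13 to 0.37, adjusted p = 0.438). The dimmer one, 1371283_at, read 394, 635, 242 and 280 at P1. It read 654, 646, 511 and 643 at P21, where P1 replicate 2 lay among the P21 values. It rose by 0.73 ± 0.26 (adjusted p = 0.0484), a call at the edge of the threshold. It was lost without any array other than P1 replicate 2 (adjusted p 0.0553 to 0.124), with a pseudocount of 1 (0.0508), without the filter (0.0860) and with quantile normalization (0.0587), and without P1 replicate 2 the adjusted p was 0.00219. The mean of the 2 probe sets gave 0.42 ± 0.16 (adjusted p = 0.0618).

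Jun, the partner of Fos in AP-1, had 3 probe sets, all lower at P21 on average. Of these, 1389528_s_at and 1374404_at are annotated to the same sequence record, so the 3 are not fully separate measures. The brightest, 1369788_s_at, read 5074, 3908, 5018 and 5145 at P1 and 3731, 3563, 3940 and 3623 at P21. P1 replicate 2 lay inside the P21 range and the other P1 arrays above it. The probe set fell by 0.36 (SE 0.11, adjusted p = 0.0278). Its call was lost without the filter (0.0589) and whenever 1 of P1 replicates 1, 3 and 4 or of P21 replicates 1, 2 and 4 was left out (0.0546 to 0.0810). The probe set 1389528_s_at had a change of -0.37 ± 0.18 (adjusted p = 0.138) and 1374404_at one of -0.71 ± 0.32 (adjusted p = 0.113). Both passed without P1 replicate 2 (adjusted p = 0.0339 and 0.0388), the array on which all 3 Jun probe sets read lowest at P1. By the manufacturer's naming, the suffix _s_at marks probe sets that can match transcripts of more than 1 gene, so signal of related sequences is possible in these 2.

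The AP-1 members Junb, a Jun relative with weaker activity on many promoters, and Fosl2, also called Fra2, lay below the filter level on all 8 arrays and were not tested in the main analysis. Junb read 92.5, 122, 93.1 and 76.6 at P1 and 152, 180.5, 169.8 and 159 at P21. All 4 P21 arrays lay above all 4 P1 arrays, with a change of 0.71 (adjusted p = 0.00561 when no filter was used). Of the Fosl2 probe sets, 1383860_at went from 78.9 ± 23.1 to 123 ± 13.4, also without overlap (0.58, adjusted p = 0.0501 without the filter). The other, 1387530_a_at, read 55.3 ± 21.6 and 56.4 ± 30.4. Over all 31042 probe sets, dim ones included, the ages did not overlap in 28.2%, against 5 of the 16 member probe sets.

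**Figure D3:**
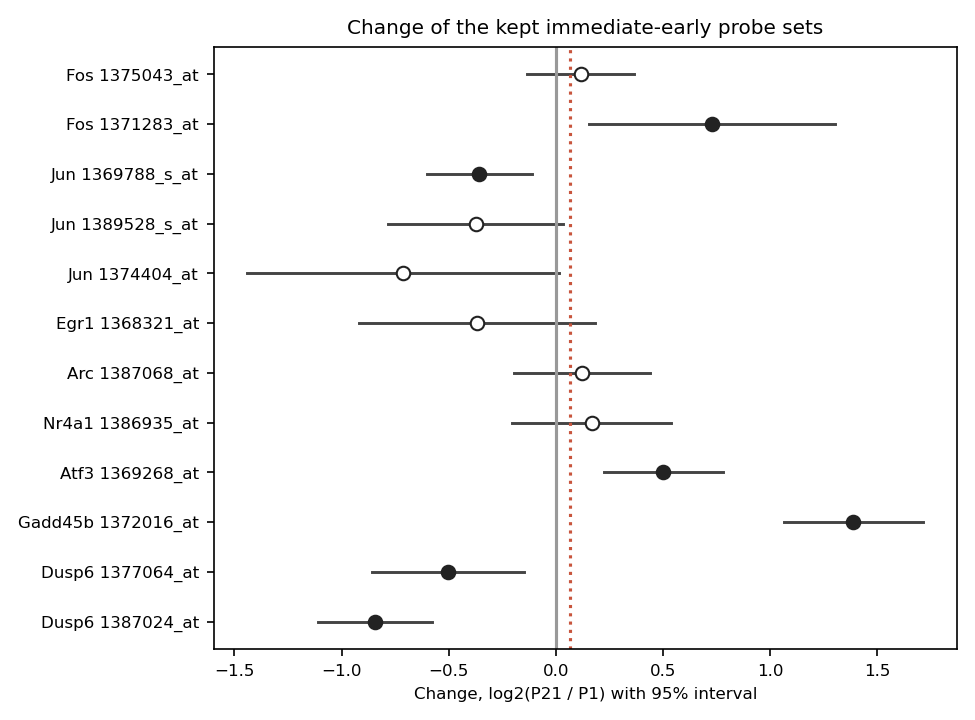
Change of the 12 kept probe sets on the log2 scale, P21 over P1, with 95% intervals from limma. Filled points passed an adjusted p under 0.05, the solid line is 0 and the dotted line the median of all kept probe sets (0.07). Gadd45b lies farthest right at 1.39 and Dusp6 1387024_at farthest left at -0.84, with wide intervals for Jun 1374404_at, Egr1 and Fos 1371283_at.

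Egr1, a zinc finger transcription factor also known as zif-268 and Krox-24, did not pass the test. It read 1742, 1110.4, 1491 and 2137 at P1. It read 986, 1343, 925 and 1795 at P21, and 2 of these lay within the P1 range and 2 below it. The change was -0.37 ± 0.25 (95% interval -0.92 to 0.18, adjusted p = 0.271). Its residual SD between arrays of an age exceeded that of 93.7% of all kept probe sets.

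Arc, which binds the endocytic machinery and lowers AMPA receptors at the synapse, read 342, 380, 353 and 436 at P1 and 403, 427, 324 and 512 at P21. The change was 0.12 ± 0.14 (95% interval -0.19 to 0.44, adjusted p = 0.527). Nr4a1, the orphan nuclear receptor Nur77, read 401, 266, 350.3 and 393 at P1 and 343, 335, 408 and 508 at P21. Its change was 0.17 ± 0.17 (95% interval -0.20 to 0.54, adjusted p = 0.460). Both genes lay near the filter level and their ages overlapped.

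The members did not share 1 order of the arrays within an age. P21 replicate 4 was the highest P21 array for Egr1, Arc and Nr4a1 (log2 deviations of 0.55, 0.30 and 0.36 from the P21 mean), and P1 replicate 4 the highest P1 array for Egr1 and Arc (0.44 and 0.21). P1 replicate 2 was the lowest P1 array for 7 kept probe sets, those of Egr1 (-0.50), Nr4a1 (-0.37), Jun and Dusp6 (-0.15 and -0.09). It was the highest for 3, both of Fos and that of Gadd45b (0.12). The residual SD ranked from the 27.8th percentile of all kept probe sets for Jun 1369788_s_at and the 29.8th for Fos 1375043_at to the 94.6th for Fos 1371283_at and the 97.8th for Jun 1374404_at, so 2 probe sets of 1 gene could rank far apart.

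**Figure D4:**
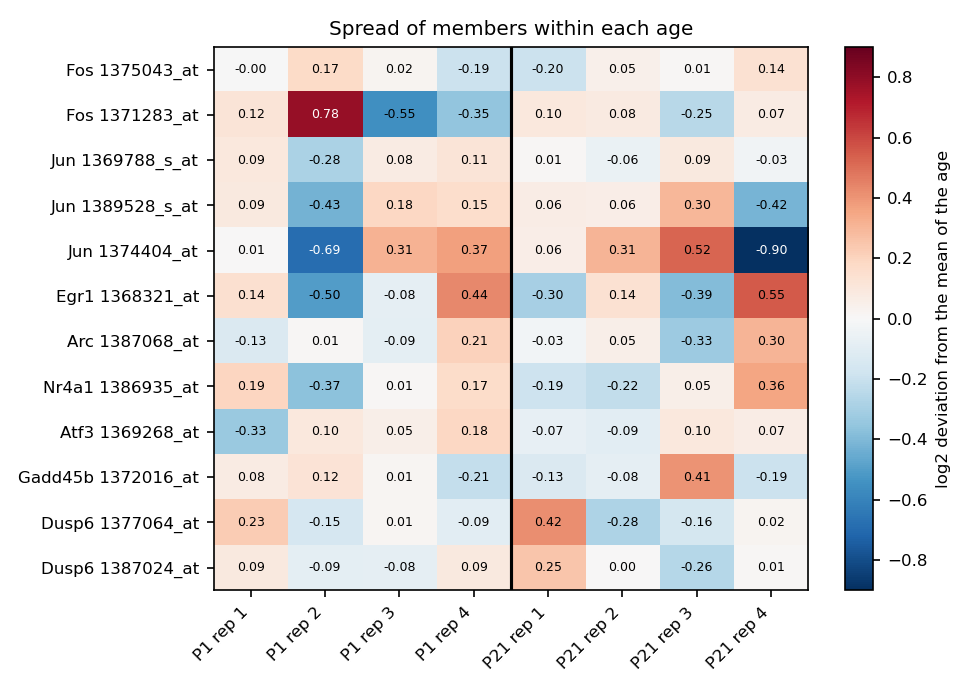
Deviation of each array from the mean of its age on the log2 scale, for the 12 kept probe sets, with P1 replicates on the left of the line and P21 replicates on the right. The Jun probe sets are lowest on P1 replicate 2, where both Fos probe sets are highest, and Egr1, Arc and Nr4a1 are highest on P21 replicate 4.

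Among other immediate-early transcription factors, 4 of the 13 genes with a kept probe set rose and 1 fell. Over all 10961 genes, 22.1% were called higher and 17.4% lower. The median change of the list was 0.16 against 0.05 over all genes. Like the members, this list and those below were chosen with earlier results of these data known, so their counts are no independent test. Mafk, a small Maf protein that pairs with other leucine zippers, rose from 556 ± 92.7 to 1137 ± 65.9 (1.02 ± 0.13, adjusted p = 2.00e-04). Crem, a CREB relative, rose by 0.81 ± 0.14 with its other kept probe sets at 0.79 and 0.76, and Myc fell by 0.77 (SE 0.15, adjusted p = 0.00264). Klf2 rose by 1.34 ± 0.23 on its brightest probe set, but its others changed by 0.13, -0.58 (called) and -0.30, and the mean of all 4 did not pass (adjusted p = 0.358). Closest in family to the members, Jund (-0.13), Egr2 (0.16), Egr4 (0.07) and Nr4a3 (-0.04) were measured and did not pass, and Fosb, Fosl1, Egr3 and Nr4a2 were not kept. Of the rest of the list, Ier2, Per1 and Zfp36 were not kept.

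Among activity-regulated effectors, 10 of 14 fell and 2 rose, against 17.4% called lower and 22.1% higher over all genes. The median change was -0.58 against 0.05 over all genes. Bdnf, a neurotrophin released in response to activity, fell from 1032 ± 144 to 187 ± 44.3. All its P21 intensities were under the filter level, so the fall is given as at least 3.58-fold. It passed the filter through its P1 arrays alone, so its call (limma, adjusted p = 7.04e-06) rests on P21 intensities under that level. The kinase gene Sik1 fell by 0.98 (SE 0.15) and Scg2, a granin of dense-core vesicles, by 0.90 (SE 0.11). Ccn2, a matrix-associated signalling protein, rose from 837 ± 207 to 2668 ± 608 (1.66 ± 0.21), and Nrn1, the neurite-promoting protein neuritin, by 1.13 ± 0.25.

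Dusp6 was compared with other MAP kinase phosphatases and feedback inhibitors. Of these, 6 of 13 fell and 2 rose (median change -0.19), against 17.4% called lower and 22.1% higher over all genes. Dusp2, a nuclear phosphatase of ERK, fell from 1114 ± 111 to 205 ± 68.5 (-2.39 ± 0.19, adjusted p = 1.22e-05). Spry1 and Spry2, Sprouty proteins that restrain receptor tyrosine kinase signalling, fell by 1.33 (SE 0.15) and 0.97 (SE 0.09). Dusp14 rose from 204 ± 13 to 901 ± 62.8, at least 3.42-fold, and Dusp1, the classical immediate-early phosphatase, rose by 0.69 ± 0.10 while its other kept probe set (0.09) did not pass.

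Gadd45b and Atf3 belong with genes of injury and stress, of which 8 of 16 others rose and 2 fell (median change 0.39). Over all genes, 22.1% were called higher and 17.4% lower. Hspb1, a small heat shock protein, rose from 675 ± 213 to 7595 ± 712 (3.52 ± 0.23, adjusted p = 4.88e-06), Atf5 by 1.26 ± 0.12 and the cell cycle inhibitor gene Cdkn1a by 0.86 ± 0.20. Gadd45a, the sister of Gadd45b, rose by 0.50 ± 0.14 (adjusted p = 0.0177). The peptide genes Adcyap1 and Vip fell, Adcyap1 at least 2.94-fold and Vip from 1730.4 ± 501 to 298 ± 55.8. Centring the arrays on their medians left 3 of these genes higher and 2 lower, and Gadd45a was among those that no longer passed. Sox11, Il6 and Csrp3 of the list were not kept, Sox11 lying under the filter level on all P21 arrays. Without the filter, 7 of the 19 genes of the list rose and 3 fell.

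Of 27 upstream kinases and transcription factors, 5 rose, 3 fell and 19 did not pass (median change 0.05). These counts are not above the shares over all genes (22.1% higher and 17.4% lower). The activity-dependent transcription factors Mef2c (1.44 ± 0.16, adjusted p = 9.62e-05) and Mef2a (0.72 ± 0.10) rose on all their kept probe sets, as did Elk3 (0.61 ± 0.09), an ELK partner of SRF. Camk4, a nuclear kinase of CREB, fell from 634 ± 47.1 to 110.2 ± 43.3, at least 2.23-fold. Mapk8, the Jun kinase JNK1, fell by 0.63 (SE 0.10) on its brightest probe set, with others at -0.23, 0.08 and 0.63 that did not pass. Camk2d fell by 0.28 (SE 0.10, adjusted p = 0.0454), a call lost without the filter, with quantile normalization and without any 1 of the arrays except P21 replicate 1. Srf itself read 1605 ± 218 and 1446 ± 101 (-0.14 ± 0.11), and Creb1 changed by 0.22 ± 0.10, neither passing.

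**Figure D5:**
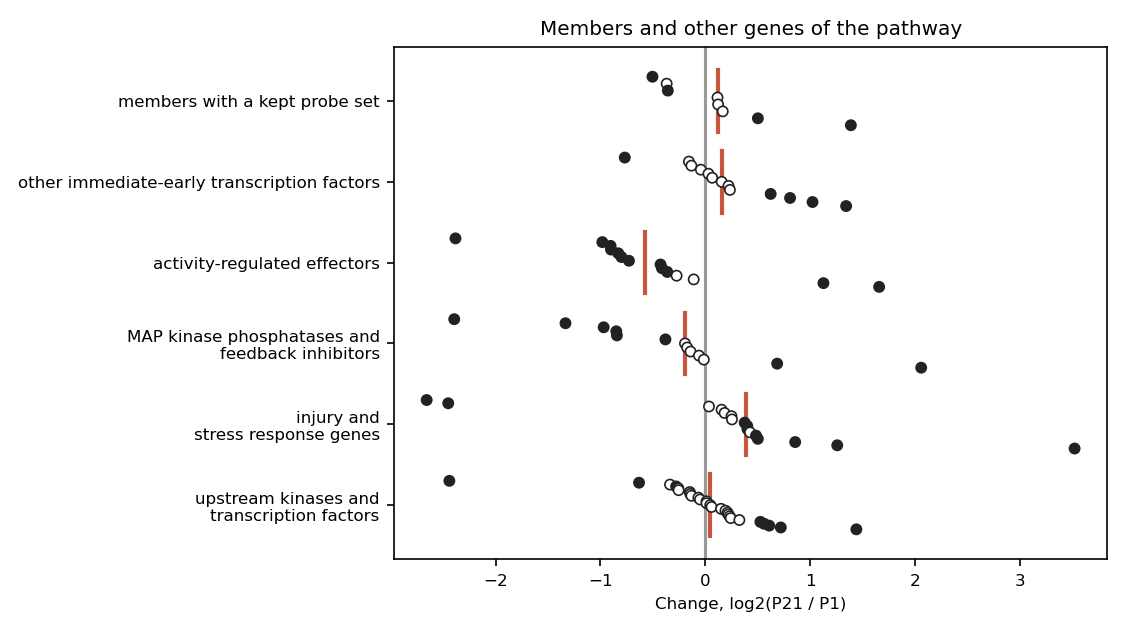
Change on the log2 scale, P21 over P1, of the 8 members with a kept probe set and of the other genes of the pathway in 5 lists, 1 point per gene by its brightest kept probe set. Filled points passed an adjusted p under 0.05 and red bars are medians. The effectors lie mostly left of 0 (10 of 14 fell) and the injury and stress genes mostly right (8 of 16 rose), with Hspb1 farthest right at 3.52. Over all genes, 22.1% were called higher and 17.4% lower.

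Gadd45b was the only member called with at least a 2-fold change, and its 3 nearest genes were sought by the root mean square difference of log2 profiles, each centred on its own mean over the 8 arrays. Of 10960 other genes these were Ldhd, a mitochondrial lactate dehydrogenase, at 0.105, Prodh, proline dehydrogenase, at 0.106, and Chat, which makes acetylcholine, at 0.130 on the log2 scale. Ldhd went from 254 ± 28 to 696 ± 112 and Prodh from 240 ± 24.2 to 679.8 ± 167. At P1, Ldhd was above the filter level on 2 arrays and Prodh on 0. Genes with a like change between the ages come out near by construction of this measure.

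Of 8 motoneuron markers, all above the filter level on every P1 array, 1 rose, 1 fell and 6 did not pass. Chat rose from 1377 ± 244 to 3451 ± 450 (1.32 ± 0.14), while Slc5a7, the choline transporter (4698 ± 379 and 5003 ± 336), and Nefl, the neurofilament light chain (8977 ± 275 and 9434 ± 293), did not pass. Isl1, a transcription factor of motoneuron identity, fell from 789.8 ± 209 to 239.8 ± 84.4 (-1.67 ± 0.24, adjusted p = 4.91e-04) and was above the filter level on 1 of the 4 P21 arrays. Markers of other cells moved with age as well, where 22.1% of all genes were called higher and 17.4% lower. The sum of 7 oligodendrocyte markers went from between 7168 and 9177 at P1 to between 29304 and 31577 at P21, with 7 of 7 called higher, Mbp among them (2.09 ± 0.21). The sum of 8 astrocyte markers went from between 13910 and 15405 to between 21391 and 24971, with 6 higher and 1 lower, Gfap among the rises (1.53 ± 0.17). The sum of 11 microglial and macrophage markers went from between 2568 and 3897 to between 5539 and 9635, with 6 of 8 kept genes higher, although Aif1 did not pass. Of 10 markers of endothelium and pericytes 6 were higher (sums of 7034 to 8915 and 10447 to 22479), Cldn5 not among them. The highest of these sums, on P21 replicate 4, held Col1a1 at 8626 and Col1a2 at 8464, and without these 2 collagen genes the sums were 4429.6 to 5308 at P1 and 5389 to 10859.8 at P21, lowest at P21 on replicate 4. In addition, 3 of 4 markers each of erythrocytes (2660.1 to 8385 and 9614 to 13079) and Schwann cells (7408 to 10118 and 11766 to 16241) were higher. Of 6 kept interneuron markers 4 fell and 1 rose, and the sum of the 8 on the array went from between 13221 and 13514 to between 7095 and 9065, with Gad1 at -0.56 ± 0.19 (adjusted p = 0.0444, or 0.914 when its probe sets were averaged). Of these lists, 0 markers read 0 or less on all arrays, and of the oligodendrocyte markers Mobp, Mog and Opalin lay under the filter level on all P1 arrays. So did the called markers Cd74 and Tyrobp of microglia and macrophages and Slc4a1 of erythrocytes. The interneuron marker Tac1, which fell, lay under it on all P21 arrays. Each of these markers passed the filter only through the age at which it was higher. These marker sums differed between the ages alongside Gadd45b, Atf3, Dusp6 and the lists above, and their part in those changes was not tested.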

How the data were processed

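The authors deposited linear intensities of 31042 probe sets on 8 arrays, with 66 to 250 values per array below 0. Their probe summary, background correction and normalization are not stated in the labels. Array medians ranged from 323 to 416, and Pearson correlations of arrays from 0.958 to 0.986 inside an age and from 0.821 to 0.868 across ages. Depth is not defined for arrays, and their number limits the precision.

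Genes were named by the platform's annotation, checked by gene identifier against GRCr8 (20826 probe sets with 1 symbol, 436 with several, 9780 with none; 20758 identifiers were found and 0 symbols changed). Negative values were raised to 0 before log2(intensity + 16) was taken and fitted in R 4.3.3 with limma 3.58.1 over all 8 arrays with no covariate. Benjamini-Hochberg adjustment covered the 19155 kept probe sets, and the fit was tested on simulated data. Fold changes on this scale understate dim genes. Where all 4 intensities of an age lay under the 40th percentile, the fold is a bound against that level. A kept probe set of this kind passed the filter through the other age alone. Among the named genes of the lists this held for Bdnf, Adcyap1 and Camk4, dim at P21, and for Dusp14, dim at P1. Alternatives changed the pseudocount, filter, normalization, replicate block, probe set per gene and arrays used.

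Named genes are all member probe sets, the up to 3 largest called rises and falls of each list, fixed markers, and the 3 genes nearest to a member called with a 2-fold change. Others were chosen after their values were seen: Jund, Egr2, Egr4, Nr4a3, Gadd45a, Srf, Creb1, Isl1, Camk2a, Col1a1, Col1a2, genes named as not kept, and markers under the filter level. The members and lists were chosen with earlier results of these data known.

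Replicate numbers are shared by the ages, and deviations of same-numbered arrays from their age's mean correlated at 0.514, 0.321, 0.558 and 0.150 for numbers 1 to 4. Pairs of unlike numbers ran from -0.458 to 0.366. That highest value was P1 replicate 4 with P21 replicate 3, so P1 replicate 4 did not match its own number best. With the litters divided between the ages, the shared numbers were read as a possible pairing, although the design text does not tie a number to a litter. The main fit had no block.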

Additional observations from a re-analysis of the deposited data

Results flagged for a closer look

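For 5 of 102 groups of 4 arrays, 1 array stood far from the other 3, by Dixon's test at the 95% level. Chance gives about 1 in 20. Fos 1371283_at read 511 on P21 replicate 3, against 643 to 654 on the other P21 arrays. Jun 1369788_s_at read 3908 on P1 replicate 2, against 5018 to 5145. Gadd45b read 1185 on P21 replicate 3, against 776 to 840.2. Dusp1 read 859 on P1 replicate 2, against 1009.9 to 1040.5. Ldhd read 295 on P1 replicate 2, against 235 to 242.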

How the results depend on the processing

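Of 176 values of the 12 kept member probe sets under the alternatives, 146 kept their direction and their side of the threshold, 26 lost a call, 2 gained one and 2 turned direction. Of the 4 that were not kept, 1 (Junb) passed when no filter was used. The turns came with centring, for Fos 1375043_at (-0.020) and Arc (-0.014), neither called. Centring also turned the uncalled Slc5a7 (-0.046), Nefl (-0.066) and Aif1 (-0.080), and Aif1 turned with quantile normalization (-0.039). Without 1 array the change of Aif1 lay between -0.072 and 0.19, below 0 without P1 replicate 3 or 4 or P21 replicate 1. The cause was not tested.

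Leaving out 1 array gave 3 to 8 member probe sets called in place of 6. The 3 came on leaving out any 1 of P1 replicates 1, 3 and 4 and P21 replicates 2 and 4, and the 8 without P1 replicate 2. Members called were then 2 to 4 in place of 4, with 2 without those same 5 arrays. Fewer arrays widen the error by construction. Over all probe sets 5985 to 7419 were called, against 7329. The injury and stress list gave 5 calls with centring in place of 10, and 8 to 11 without 1 array. The other lists gave 4 to 5 (other transcription factors), 10 to 12 (effectors), 7 to 8 (phosphatases and inhibitors) and 6 to 8 (upstream genes). With the replicate block 6 member probe sets and 4 members were called and no member call changed, while 8805 probe sets were called over all. The block raised the upstream list from 5 higher and 3 lower to 6 and 5, the injury and stress list from 8 higher and 2 lower to 10 and 2 and the effectors that fell from 10 to 11, while Camk2a lost its call. With the filter at the 60th percentile, the probe sets of Arc, Nr4a1 and Atf3 and Jun 1374404_at could not be fitted.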
